A study of Homo sapiens with 4 samples.

Results

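Cytosolic ribosomal protein genes encode the proteins that, with ribosomal RNA, make up the large and small subunits of the ribosome. They were taken by symbol: RPLP0, RPLP1, RPLP2 and RPSA, and every symbol made of RPL or RPS, a number and at most 1 letter A, X or L. These symbols held 105 of the 19714 regions in the deposited tables, 3 of 604 after testosterone and 102 of 19110 in control cells. RefSeq lists 81 protein-coding genes under the rule, 49 of the large and 32 of the small subunit, and 62 of them were credited with at least 1 control region. The rule also takes RPL3L, RPL10L, RPL39L and RPS27L, which are paralogs of core proteins.

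H3K27ac, acetylation of lysine 27 on histone H3, was profiled in KGN cells by immunoprecipitation of crosslinked chromatin followed by sequencing; KGN is a line grown from a human granulosa cell tumor. The testosterone group was given the hormone at a concentration written as 10 um for 24 h, and the control group carries the label control with no vehicle named. Each group has 1 immunoprecipitated library and 1 input library, 4 in all, and the authors called regions once per group against its own input. Nothing about the groups was therefore replicated, no test between them was made, and each value stands for a single pair of libraries of a single tumor line.

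Depth enters through the regions themselves, because library totals were not used here. The pileup, the fragments stacked at the summit, with 1 fragment worth 1 in the testosterone and 0.937 in the control table, had a median of 10 (range 8 to 35) over the testosterone regions and 15.9 (range 6.56 to 110.5) over the control regions. Shares carry Wilson 95% intervals, which cover counting error only. Among 15 granulosa markers, 0 had a region within 1 kb of the start after testosterone, against 0.931% of all protein-coding genes, and 3 (20%) had one in control cells, against 41.0%. The 3 were FOXL2, the ovarian fate factor, with a fold of 10.7, INHBB and HSD17B1. With any credited control region counted it was 6 of 15 (40%), against 48.2% of all, adding CYP11A1 with 7 regions, NR5A1 with 2 and FST with 1, while 9, FSHR, CYP19A1 and AMH among them, had none in either table. A weak pileup from fewer cells with the mark and one from less mark per cell cannot be told apart.

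Ribosomal protein genes are transcribed in nearly every cell, and their promoters are among the most active. Their mRNAs typically begin with a C followed by an unbroken run of pyrimidines, the terminal oligopyrimidine (TOP) motif, through which mTOR and the RNA-binding protein LARP1 adjust their translation to growth. H3K27ac marks nucleosomes on the sides of active promoters and enhancers.

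The TOP motif can be read in the gene starts themselves, which RefSeq (GRCh38.p14) gives for 64 of the 81 genes in 79 windows, since some genes have several starts. The lines below give 20 bases before and 20 after the start, 5′ to 3′ on the gene's strand, with a pyrimidine run that opens at the start in capitals. The first 3 belong to the genes found after testosterone, the next 3 to genes of high control fold, the next 4 to the stalk, RPSA and RPL11, and the last to RPS6, which had no control promoter region.
RPS4X, chrX:72277229-72277268, minus strand: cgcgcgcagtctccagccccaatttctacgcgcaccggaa
RPL22, chr1:6199576-6199615, minus strand: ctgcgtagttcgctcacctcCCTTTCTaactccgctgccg
RPLP1, chr15:69452798-69452837, plus strand: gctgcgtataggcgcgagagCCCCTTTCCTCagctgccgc
RPL26, chr17:8383174-8383213, minus strand: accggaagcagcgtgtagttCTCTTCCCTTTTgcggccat
RPL10A, chr6:35468381-35468420, plus strand: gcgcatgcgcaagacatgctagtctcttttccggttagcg
RPS27L, chr15:63157458-63157497, minus strand: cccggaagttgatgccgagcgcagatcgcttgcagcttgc
RPLP0, chr12:120201092-120201131, minus strand: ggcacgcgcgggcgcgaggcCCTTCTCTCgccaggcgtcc
RPLP2, chr11:809947-809986, plus strand: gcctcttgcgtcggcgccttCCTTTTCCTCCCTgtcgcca
RPSA, chr3:39406700-39406739, plus strand: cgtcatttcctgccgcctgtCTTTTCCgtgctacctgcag
RPL11, chr1:23691786-23691825, plus strand: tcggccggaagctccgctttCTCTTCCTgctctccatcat
RPS6, chr9:19380217-19380256, minus strand: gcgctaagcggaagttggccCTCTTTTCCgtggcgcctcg

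A C at the start followed without a break by pyrimidines, at least 5 in a row in all, stood in 46 of the 79 ribosomal windows (58.2%), against 4.55% of the 22132 windows of all protein-coding genes. It was found at 28 of 51 large-subunit and 18 of 28 small-subunit starts. A run of at least 8 pyrimidines begun within 10 bases of the start was present in 56 windows (70.9%), against 12.3% of all. RPS4X and RPS27L had no run at the annotated start, and RPL10A begins with AG, its run lying a few bases further in. Control regions touched 24 of the 46 windows with the motif (52.2%, 38.1 to 65.9) and 13 of the 33 without it (39.4%, 24.7 to 56.3), intervals that overlap widely.

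Of 9 motifs searched on both strands of the 300-base windows (250 before and 50 after the start), 2 stood furthest from the background in share. The core CCGGAAG, read by ETS factors such as GABP, was present in 27 of 79 ribosomal windows (34.2%), against 12.8% of all. These windows belong to 23 genes. TCTCGCG was present in 18 (22.8%), against 4.58%. AAGATGGC, the core read by YY1, was present in 6 (7.59%), against 3.54%. The GC box GGGCGG stood in 55.7% of ribosomal and 56.3% of all windows, CCAAT in 34.2% and 34.6%, and TATAAA in 7.59% and 9.46%. The other 3 were GCGCATG (11.4% and 5.26%), TGACGTCA (3.80% and 2.26%) and CACGTG (5.06% and 8.34%). CCGGAAG and TCTCGCG are capitalised below, on either strand, in the 250 bases before the start of RPL26 and RPL10A, genes of high fold whose control regions span these bases, and of RPS6, which has no control region near it.
RPL26, chr17:8383194-8383443, minus strand: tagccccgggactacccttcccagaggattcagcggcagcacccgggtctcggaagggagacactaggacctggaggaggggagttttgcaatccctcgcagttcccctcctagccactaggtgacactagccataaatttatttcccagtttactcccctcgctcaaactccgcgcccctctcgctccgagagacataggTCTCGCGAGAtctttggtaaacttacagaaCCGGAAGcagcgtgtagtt
RPL10A, chr6:35468151-35468400, plus strand: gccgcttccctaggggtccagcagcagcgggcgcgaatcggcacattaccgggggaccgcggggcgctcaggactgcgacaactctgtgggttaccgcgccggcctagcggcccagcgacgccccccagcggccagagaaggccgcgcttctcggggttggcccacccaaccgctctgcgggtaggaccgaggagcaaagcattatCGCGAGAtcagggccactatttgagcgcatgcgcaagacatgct
RPS6, chr9:19380237-19380486, minus strand: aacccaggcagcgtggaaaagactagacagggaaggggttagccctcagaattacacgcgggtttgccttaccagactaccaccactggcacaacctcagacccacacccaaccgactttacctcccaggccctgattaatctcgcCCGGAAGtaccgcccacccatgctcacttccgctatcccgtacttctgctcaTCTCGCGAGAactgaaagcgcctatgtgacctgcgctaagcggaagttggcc
In RPL26 and RPS6 both orientations of TCTCGCG overlap in a palindrome, although RPL26 had a control region there and RPS6 had none. A match is a description of letters, not of a bound factor.

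A region within 1 kb of the gene start, the authors' own distance, is called a promoter region here. After testosterone, 2 of the 81 ribosomal protein genes had one (2.47%, 0.680 to 8.56), against 0.931% of the 19974 protein-coding genes. In control cells 57 had one (70.4%, 59.7 to 79.2), against 41.0% of all protein-coding genes. With any credited region counted, it was 3 genes (3.70%, 1.27 to 10.3) after testosterone, against 2.41% of all, and 62 genes (76.5%) in control cells, against 48.2%. Thus the control share lay above its background by more than its counting error, and the testosterone share rested on 2 genes with an interval that includes its background.

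The same contrast was visible when RefSeq starts replaced the authors' credit. Testosterone regions touched 0 of the 79 ribosomal windows, which allows a share of up to 3.80%, against 0.312% of all windows. Control regions touched 37 of 79 (46.8%, 36.2 to 57.7), against 30.0% of all. Some of these windows share a gene and a region, as in RPL13 and RPL15, so they are not independent. A control region, credited to whichever gene, lay within 1 kb of 57 of the 79 starts (72.2%), against 43.3% of all.

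Large-subunit genes had a control promoter region in 32 of 49 cases (65.3%, 51.3 to 77.1) and small-subunit genes in 25 of 32 (78.1%, 61.2 to 89.0). The intervals overlap, so the counts do not separate the subunits. After testosterone each subunit had 1 gene with a promoter region, RPL22 of the large and RPS4X of the small.

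The strength of the mark was read as fold enrichment, the authors' ratio of pileup plus 1 to local background plus 1, in the strongest promoter region of each gene. In control cells the ribosomal median was 5.92 (interquartile range 4.32 to 7.04, range 2.84 to 12.9), against 5.86 (4.62 to 7.51) over the 8189 marked protein-coding genes. The large-subunit median was 5.95 (4.42 to 7.19) and the small-subunit median 5.65 (4.20 to 6.97). Pileup had a median of 18.7 in both the ribosomal and the protein-coding set, and background one of 2.13 and 2.16. Of the 57 genes, 11 stood above the upper quartile of fold of all marked genes and 16 below the lower quartile. Ribosomal protein promoters were therefore marked more often than others in the control table but, where marked, with a median fold close to that of all marked genes. The summits of these regions held 8 to 39 fragments, with a median of 20.

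**Figure D1:**
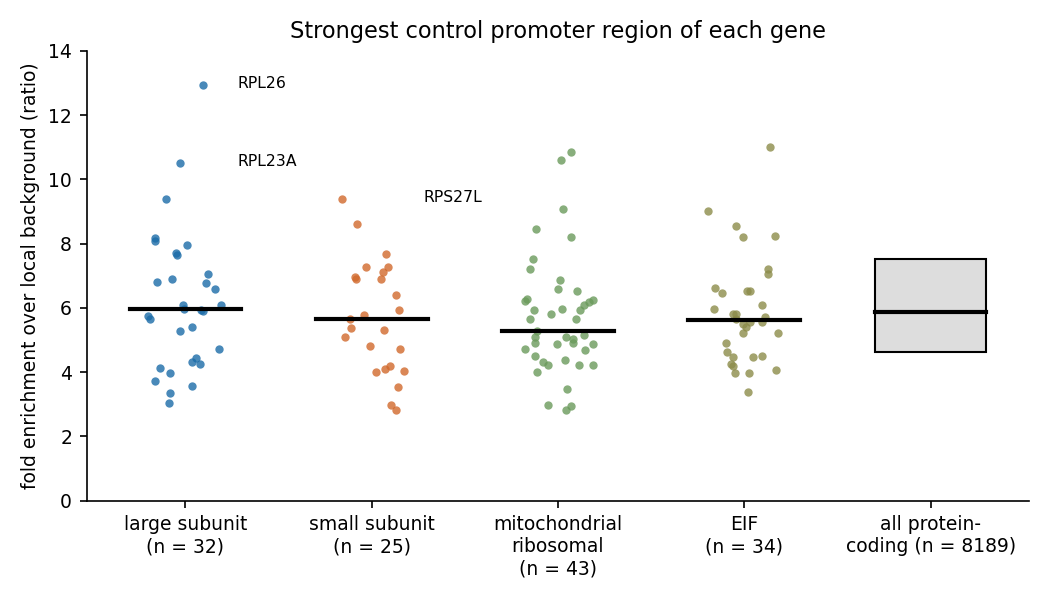
Fold enrichment (ratio, vertical axis) of the strongest control promoter region of each gene; points are genes, bars are medians and the box is the interquartile range of all marked protein-coding genes. The medians lie between 5.27 for mitochondrial ribosomal genes and 5.95 for the large subunit, and RPL26 stands highest at 12.9.

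Among the single genes, RPL26, a large-subunit protein near the exit of the nascent-chain tunnel, had the highest fold at 12.9, with a pileup of 36.5 over 1068 bp and its summit at −232 bp from the start. It ranked 137 among the 8189 marked genes. The ranking uses credited regions, so a region of fold 13.1 that covered the RefSeq start of RPL7 but was credited to RDH10 is left out. RPL23A, a neighbor of RPL26 at the tunnel exit, followed at 10.5 in a region of only 342 bp. RPL10A, of the mobile L1 stalk, had 9.39 over 956 bp. RPS27L, the paralog of RPS27, had 9.38 with the same pileup as RPL26, 36.5, over 502 bp.

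Next by fold came RPS15A with 8.59, RPLP2 with 8.19, RPL13 with 8.09, RPL23 with 7.94 and RPLP1 with 7.69. Among the broad regions, RPL13 had 1320 bp and RPS15A 1212 bp, and RPS25 had 1064 bp, with a fold of 6.41 and a summit at −712 bp. These 3 regions and that of RPL26 cover the authors' start.

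The lowest fold was that of RPS2, a protein at the mRNA entry of the small subunit, with 2.84 over a background of 4.64. RPS27 had 2.98 over a background higher than that of 93.7% of all marked genes, RPL28 3.05, RPL30 3.36 and RPS29 3.53. The RPL30 and RPS29 regions lay away from the RefSeq starts, with summits at −1664 and 12491 bp. Only 268 bp from the RPS29 start lay a region of fold 6.89 credited to LRR1. The pileups of RPS2 and RPS27 were 15.0 and 16.9, at or above the lower quartile and below the median of the 57 genes, and that of RPL30 was 7.49. Low fold thus came with a high local background in RPS2 and RPS27 and with few fragments in RPL30. RPL3, a protein of the catalytic center of the large subunit, also had a high background: its pileup of 30.9 stood over the highest background of the 57 genes, 6.49, giving a fold of 4.26.

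The acidic stalk, which recruits translation factors, is built on RPLP0 with RPLP1 and RPLP2 bound to it. RPLP0 had a fold of 5.95 over 258 bp, RPLP1 one of 7.69 over 563 bp and RPLP2 one of 8.19 over 845 bp. Each was thus credited with a promoter region, and the anchor had the narrowest. The RPLP2 region ended 84 bp before the RefSeq start and lay within 1 kb of an end of PIDD1. RPL5 and RPL11, which travel together with a small ribosomal RNA before they join the subunit, had 6.10 over 556 bp and 7.04 over 565 bp. RPSA, also known as a laminin receptor, had a pileup of 15.0 over 671 bp and ranked 7009 of 8189 by fold. RPS14, whose loss is linked to a myelodysplastic syndrome, had 6.91 over 963 bp, and RPS19, the gene most often mutated in Diamond-Blackfan anemia, 5.38 over 247 bp.

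In width the ribosomal median stood further from that of all marked genes than in fold. The strongest control promoter region had a median width of 375 bp (interquartile range 291 to 644) in ribosomal protein genes, against 519 bp (350 to 800) over all marked protein-coding genes. The order-statistic interval of the ribosomal median, 331 to 506 bp, lies below 519 bp. Regions of at most 300 bp made up 17 of 57 (29.8%, 19.5 to 42.7), against 14.6% of all, and regions of at least 1000 bp 5 of 57 (8.77%), against 14.8%. The large-subunit median was 356 bp (interval 293 to 556) and the small-subunit one 417 bp (307 to 671), and the intervals overlap. The median length of a ribosomal protein gene is 5.02 kb, against 24.2 kb over all protein-coding genes, and its part in the narrower regions was not tested.

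Among the narrowest regions were those of RPS12 with 231 bp, RPS24 with 245 bp and RPS19 with 247 bp. They differed in strength: RPS12 had a pileup of 8.43 and a fold of 4.02, while RPS19 had 16.9 and 5.38. RPS24, another Diamond-Blackfan gene, had its summit at −865 bp with a fold of 4.10, the farthest summit of the 57 by the authors' start.

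**Figure D2:**
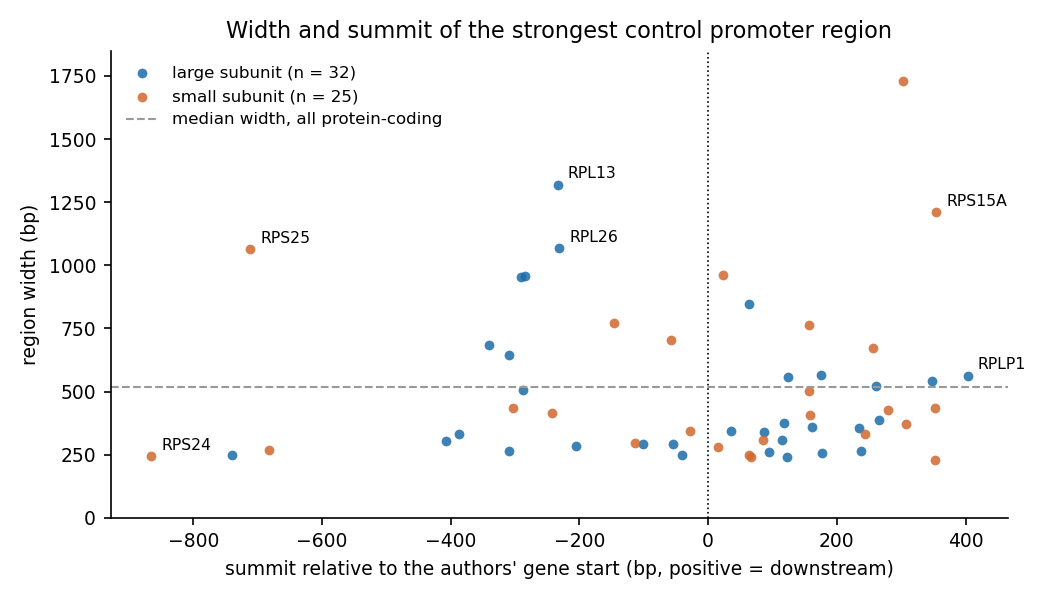
Width in bp (vertical axis) against summit position in bp from the authors' gene start (horizontal axis, positive downstream) for the strongest control promoter region of 32 large-subunit and 25 small-subunit genes; the dashed line is the median width of all marked protein-coding genes, 519 bp. Most points lie under that line, and RPL13, at 1320 bp, is among those far above it.

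Summits lay on both sides of the start. The median position was 64 bp downstream (interquartile range −234 to 177 bp, negative values being upstream), against 117 bp downstream over all marked genes, and the median distance regardless of side was 234 bp, against 214 bp. A summit downstream of the start was found in 33 of 57 genes (57.9%, 45.0 to 69.8), against 66.9% of all. It was 17 of 32 in the large and 16 of 25 in the small subunit. The median distance was 233 bp in the large and 243 bp in the small subunit, with no test of the difference. The region covered the authors' start in 35 of 57 (61.4%, against 59.4% of all), lay wholly downstream in 11 and wholly upstream in 11 (19.3% each, against 26.7% and 13.8%).

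RefSeq starts can differ from those of the authors' annotation. Over all RefSeq starts, marked or not, a control region covered 17 of the 79 ribosomal ones (21.5%), against 19.9% of all 22132. Of the 69 promoter regions of the members, 10 had their summit more than 1 kb from every RefSeq start, as in RPL36, where it lay at −9454 bp, and RPS29, where it lay 12491 bp downstream. This share was not computed over all control promoter regions. In RPL36 and RPS29 the gene credit follows a transcript that RefSeq does not start there. This does not hold for every such region: a further RPL13 region had its summit at −1835 bp by both starts.

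Around the RefSeq starts that have a region within 1 kb, 57 ribosomal and 9592 of all, the ribosomal coverage had a shoulder on each side of a dip at the start. The intervals below treat starts as independent, although some share a gene and a region, as in RPL13 and RPL15. Regions credited to a neighboring gene are counted too. At 400 bp upstream 45.6% of ribosomal starts were covered (33.4 to 58.4), against 35.9% of all. At the start itself it was 29.8% (19.5 to 42.7), against 46.0%. At 200 bp downstream 64.9% were covered (51.9 to 76.0), against 63.8%, and at 600 bp 10.5% (4.91 to 21.1), against 30.4%. At 900 bp downstream 0 of 57 were covered, against 17.5% of all. The ribosomal profile was thus lower at the start and shorter downstream, with the upstream shoulder as high or higher.

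**Figure D3:**
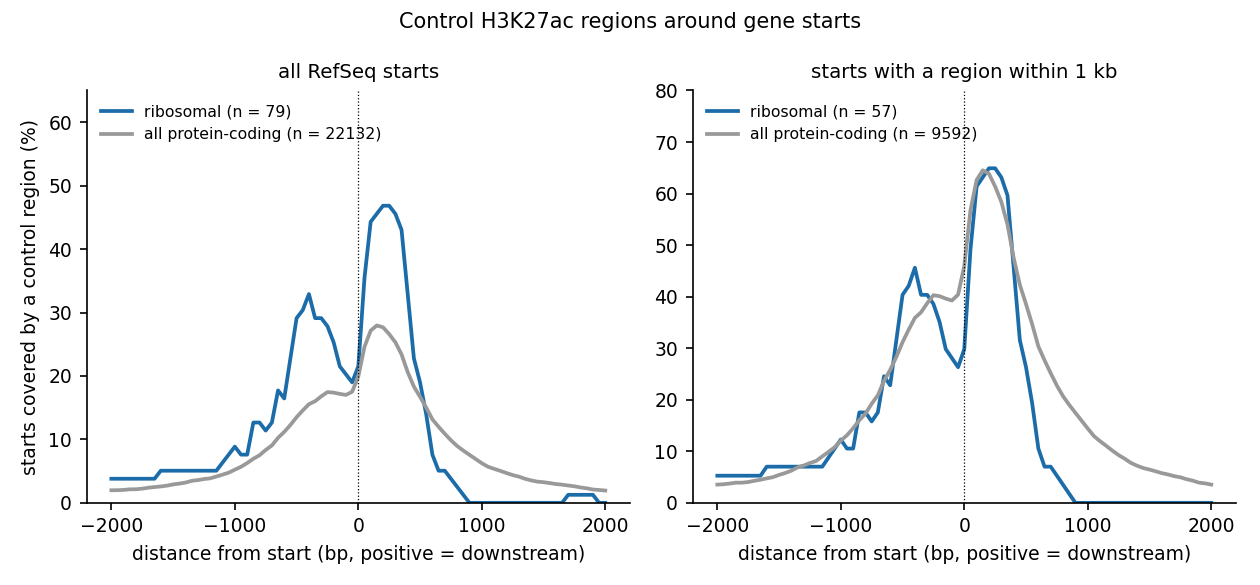
Share of RefSeq starts covered by a control region (percent, vertical axis) by distance from the start in bp (horizontal axis, positive downstream), in all starts (left) and in starts with a region within 1 kb (right). In the right panel the ribosomal line is at 29.8% at the start, against 46.0% for all protein-coding genes, and ends by 900 bp downstream.

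The 24 genes with no control promoter region were RPL4, RPL6, RPL7A, RPL9, RPL10L, RPL17, RPL18, RPL21, RPL27A, RPL32, RPL34, RPL35, RPL35A, RPL36A, RPL39, RPL39L, RPL41, RPS6, RPS10, RPS15, RPS18, RPS21, RPS23 and RPS28. RPS6, the substrate of the S6 kinases, had its nearest control region 28750 bp from its start, and RPS23, of the decoding center, 305722 bp. For 5 of the 23 that could be placed, a control region within 1 kb of the start was credited to a neighbor. The RPL7A start was covered by a region of fold 10.9 credited to MED22, the RPL27A start by one of 7.51 credited to TRIM66 and the RPS28 start by one of 5.96 credited to AC010323.1. Next to RPL35 the region was 213 bp away and credited to ARPC5L, and next to RPL9 35 bp away and credited to LIAS. RPL10L, RPL27A, RPL4, RPS15 and RPS21 had credited control regions elsewhere only.

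Regions at promoters and elsewhere were also counted together. Of the 81 genes, 42 had 1 control region, 9 had 2, 8 had 3, 2 had 4 and 1 had 10. The other 19 had 0. Of the 102 control regions 69 lay within 1 kb of a start (67.6%), against 57.2% of all 19110 control regions, and 21 were distal intergenic (20.6%), against 16.1%. RPL3 had the 10. Besides 2 at its promoter, 8 lay in a stretch of 29.1 kb at chr22:39283226-39312360, from 521 bp past the end of RPL3, with folds of 3.99 to 7.51 and a summed width of 3641 bp. On the other side the next gene, PDGFB, lies 38.2 kb away, and the credit to RPL3 is one of distance. RPL29 and RPS24 had 4 regions each, those of RPS24 beyond the promoter lying 201 to 267 kb downstream. Of the genes with 3, RPL10A had 1 at the promoter (fold 9.39) and 2 past its end (6.17 and 6.58). The one of 6.17 lay within 1 kb of an end of TEAD3. RPL11 had 2 at about 56 kb upstream.

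After testosterone the 3 ribosomal regions belonged to RPS4X, RPL22 and RPLP1. RPS4X, an X-linked small-subunit gene, had a testosterone region at chrX:72276837-72277167 (331 bp, pileup 13, fold 5.39, −log10 q 3.24), against a control region at chrX:72276750-72277177 (428 bp, pileup 25.3, fold 5.08). They overlap, and both summits lie downstream of the start, at 383 bp in the testosterone and 279 bp in the control region by the authors' start. RPS4X is the member whose testosterone region overlapped a control one; over all testosterone regions 170 of 604 did (28.1%).

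RPL22, a large-subunit protein that mice can live without, had a testosterone region at chr1:6199910-6200189 (280 bp, pileup 8, fold 4.16, −log10 q 1.47), against its strongest control region at chr1:6199014-6199555 (542 bp, pileup 21.5, fold 7.65). The testosterone summit lay at −394 bp and the control summit at 390 bp from the RefSeq start, with a gap of 354 bp between the regions. The authors' annotation used a different start for each region, and by its own the control region covers the start.

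RPLP1 had a testosterone region at chr15:69455508-69455774 (267 bp, pileup 9, fold 4.64, −log10 q 1.93), 2624 bp downstream of the start within the gene, against a control region of 563 bp over the start with a pileup of 16.9 and a fold of 7.69. The gap was 2079 bp, so the promoter region of the control table has no testosterone counterpart at this gene. Fold values from the 2 tables were scaled separately, so their difference is not a measure of change. Over the genes marked at the promoter in control cells, 2 of 57 ribosomal genes were also marked there after testosterone (3.51%, 0.968 to 11.9), against 1.92% of all 8189. The other 55 had none, RPL26, RPL23A and RPL10A among them.

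**Figure D4:**
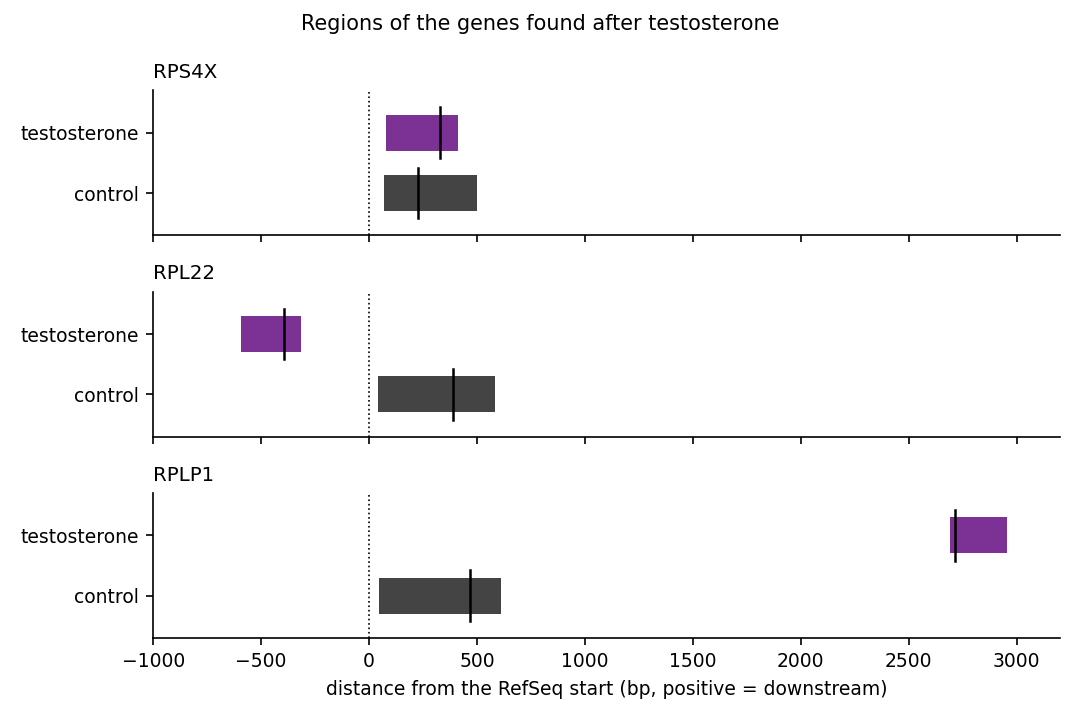
Regions of the 3 ribosomal protein genes found after testosterone, drawn to scale by distance from the RefSeq start in bp (horizontal axis, positive downstream), with the testosterone region above the strongest control promoter region and the summit as a vertical line. The regions overlap at RPS4X and are apart at RPL22 and RPLP1, by 354 and 2079 bp.

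Mitochondrial ribosomal and EIF genes were set beside the ribosomal protein genes as similar families. Over all protein-coding genes the share with a promoter region was 41.0% in control cells and 0.931% after testosterone. The share with a control promoter region was 70.4% for ribosomal protein genes and 55.8% (43 of 77) for the nuclear genes of the mitochondrial ribosome. It was 61.8% (34 of 55) for the EIF genes. These were taken by symbol and include EIF2AK1 and EIF4EBP1 as well as factors of translation initiation. The intervals overlap (59.7 to 79.2, 44.7 to 66.4 and 48.6 to 73.5). Median control fold was 5.92 in ribosomal, 5.27 in mitochondrial ribosomal and 5.61 in EIF genes, and median width 375, 393 and 477 bp. Regions of at most 300 bp made up 29.8%, 27.9% (12 of 43) and 14.7% (5 of 34) of the strongest ones. Narrow regions were thus about as frequent in mitochondrial ribosomal as in ribosomal protein genes. After testosterone 2 of 81 ribosomal, 5 of 77 mitochondrial ribosomal (6.49%, 2.81 to 14.3) and 1 of 55 EIF genes had a promoter region. The mitochondrial ones were MRPL35, MRPL42, MRPS10, MRPS15 and MRPS26.

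Other genes of the pathway came from lists fixed by name. The shares to set beside them, over all protein-coding genes, were 0.931% after testosterone and 41.0% in control cells. Of 7 ribosomal protein genes outside the symbol rule, 0 had a testosterone promoter region and 3 a control one: RACK1, a scaffold on the small subunit, with a fold of 6.47, RPL36AL with 5.97 and FAU with 3.89. Of 17 elongation and other TOP mRNA genes, 2 had a testosterone and 13 a control promoter region (76.5%). The 2 were NAP1L1 (fold 4.22) and VIM (3.58), and the highest control folds were those of PABPC1 with 16.1 and EIF4B with 11.0. EEF2, the translocase of elongation, had a testosterone region 2891 bp upstream with a fold of 4.62.

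Of 16 genes for the control of TOP mRNAs and translation, 0 had a testosterone and 12 a control promoter region (75%), led by MTOR with 10.3 and LARP1 with 9.12. Ribosome biogenesis had 0 and 14 of 30 (46.7%, 30.2 to 63.9), led by NCL, nucleolin, with 8.85 and RIOK1 with 7.51. The RNA polymerase I list had 1 and 7 of 14 (50%, 26.8 to 73.2). The 1 was UBTF, which binds ribosomal DNA, with a testosterone fold of 4.64 and a control fold of 10.9. For ribosome biogenesis and RNA polymerase I the control intervals include the 41.0% of all protein-coding genes. Factors known at ribosomal protein promoters had 0 and 7 of 9, led by YY1 with 11.6 and GABPB1 with 8.45. Of 10 genes typical of other cells of the ovary and of blood, 1 had a testosterone and 2 a control promoter region; the testosterone one was EPCAM, with a fold of 4.18 against 5.33 in control cells.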

How the data were processed

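Per condition the authors deposited a single region list, called on 1 immunoprecipitated library with its input as background. Pileup is the deposited signal at the summit, fold enrichment is a deposited ratio, and the deposited significance values are −log10 p and −log10 q. Per the submitters' processing notes the tools were Bowtie2 2.0, MACS2, ChIPseeker and bedtools and the builds hg38 and mm10; which step used which, and with what settings, is not given in the sources used here. In the testosterone table a spreadsheet error had replaced the headers of both significance columns, which were identified by order and by values: a Poisson upper tail rebuilt from fold and pileup gave −log10 p within 5.47e-05 in the testosterone and 0.00385 in the control table.

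Regions were credited to the gene the authors' annotation gives, and promoter regions lie within 1 kb of its start. Gene counts, starts and 300-base promoter windows came from RefSeq, GRCh38.p14. Control pileups are multiples of a constant step, from which fragments were counted. Intervals are Wilson 95% intervals, and for medians those of order statistics. No test between conditions or over members was made, because members of a library are not replicates.

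The genes named in full are the 10 of largest and 5 of smallest control fold, the 5 widest, 5 narrowest and 5 with most regions, those with a testosterone region, those unmarked, and RPLP0, RPLP1, RPLP2, RPSA, RPS6, RPL5 and RPL11; from other lists up to 2 of highest fold and any with a testosterone region. Other members enter through ranges, and RPS14, RPS19 and the neighbors of unmarked genes were added after their values were seen. A few genes within these criteria are not reported here. Members and lists were chosen with earlier results of these data known. Alternatives were other promoter windows, stricter −log10 q or fold, other choices of region or start, and other rules of overlap. The code was tested on simulated data and run in Python 3.11.15 with pandas 2.3.3, NumPy 2.4.6, SciPy 1.17.1 and matplotlib 3.10.9.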

Additional observations from a re-analysis of the deposited data

How the results depend on the processing

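Of 57 alternative values, 52 kept within 1.5 times the count or within the interval of the median and 5 moved. With a −log10 q of at least 5, and again of at least 10, 0 ribosomal protein genes had a testosterone promoter region, against 2 at the authors' threshold, and at 10 the control count was 16, against 57. Testosterone regions of members shared with a control region numbered 2 of 3 within 1 kb and 3 of 3 within 10 kb, against 1 at an overlap of at least 1 bp. Over the other settings the control count lay between 40 and 65. Shares over all genes and all testosterone regions were not computed at these stricter thresholds and wider overlaps. The changes therefore cannot be read as particular to ribosomal protein genes. The distance from the nearest RefSeq start, the count of any region within 1 kb of one and the medians without the 4 paralogs were chosen after seeing the data. No paired analysis was possible because each condition has 1 immunoprecipitated library and the labels give no replicate numbers. Weak regions rest on as few as 8 fragments at the summit after testosterone and 7 in control cells, so a gene without a testosterone region was not detected at this depth rather than shown to lack the mark.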

Other observations

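Of the 69 control promoter regions of ribosomal protein genes, 14 lay within 1 kb of an end of another protein-coding gene, such as RPL10A beside FANCE, RPL12 beside LRSAM1, RPL13A beside FLT3LG, RPS15A beside ARL6IP1 and RPS25 beside TRAPPC4. Either end of the neighbor was counted, 5′ or 3′, and to which gene the signal belongs was not tested. The same share over all control promoter regions was not computed. Promoter windows of ribosomal protein genes had a median GC content of 59.3%, against 62.3% over all windows.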
